A study of Mus musculus with 9 samples.

Results

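Potassium channels let potassium ions cross cell membranes and so set the resting voltage of a cell and the way it returns to rest after excitation. The genes described are those whose symbol on the array's platform table starts with Kcn, which are potassium channel subunits and a few transcripts named after them. A gene was taken where a probe set names it alone, and Kcnj8, Kcnj10 and Kcnj13 were left out. This gave 81 of the 18194 genes on the array. Where a gene had several probe sets, the one with the highest 9-array mean stood for it. On 3 or more arrays 44 of the 81 reached a value of 4, as did 12009 of all genes, and only these 44 were tested.

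The pore of a potassium channel is built from alpha subunits, and auxiliary subunits bind to it and change how it opens. Voltage-gated channels shape the action potential of neurons and open in smooth muscle when it depolarizes. Inward rectifiers and K2P leak channels hold the resting potential, calcium-activated channels couple it to calcium signals, and electrically silent subunits form channels only together with others. In brain vessels these channels are known from smooth muscle and pericytes, where their opening relaxes the vessel, and from endothelium, whose voltage spreads along the vessel wall. The Na+/K+ pump and channels of the endothelium also take part in keeping potassium low in brain fluid.

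The samples came from mouse brain, with 3 arrays in each of 3 groups that the labels describe as biological replicates. Microvascular fragments, which are short pieces of small vessels, and the brain tissue left without them (rest of brain) were taken from NMRI embryos at embryonic day 18.5, whose sex is not given. The free-text description of rest of brain replicate 3 writes the embryonic day differently, and its title was followed. The adult fragments came from mice aged 1 year on a mixed C57/SV129 background, replicate 2 from a female and the other replicates from males. Embryonic RNA came from a micro kit and adult RNA from a mini kit, so that between adult and embryonic groups age, strain and kit cannot be told apart. No genotype, treatment or method of isolating the fragments is named for any group. In these bulk samples, a smaller number of cells of a type and less RNA per cell cannot be told apart.

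All values are log2 intensities, in which a difference of 1 is a 2-fold difference, and values of a gene are listed in the order of replicates 1, 2 and 3. The median over 45101 probe sets was 3.58 to 3.67 on the 9 arrays, and most low values hardly varied from array to array. The text calls a gene at background in a group whose 3 arrays all read under 4, and a fold against such a group sets the brighter mean against 4 and is given as at least that fold. Every endothelial marker measured, 14 of 14, was higher in fragments of both ages than in rest of brain, and the summed level of the list was 17.15 to 17.34 in embryonic fragments, 9.19 to 9.88 in rest of brain and 17.31 to 17.45 in adult fragments. Neuronal markers ran the other way, at 11.45 to 12.55, 16.73 to 16.91 and 10.71 to 10.83. The summed markers of pericytes (16.21 to 16.46, 13.45 to 14.02 and 16.71 to 16.77) and of microglia and macrophages (15.65 to 17.11, 13.31 to 13.52 and 16.49 to 17.12) were higher in fragments of both ages. Smooth muscle markers summed to 13.19 to 13.62 in embryonic fragments, 9.94 to 10.42 in rest of brain and 16.08 to 16.26 in adult fragments.

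The sequences just before the start of 5 of the genes are shown because these genes stand for the opposite ends of the main comparison, Kcna5 and Kcnj15 being higher in embryonic fragments and Kcnk10, Kcnc2 and Kcnd2 higher in rest of brain. Each is the 250 bases before the most upstream start in RefSeq, build GRCm38.p6, written 5′ to 3′ on the strand of the gene, and capitals mark a GC box (GGGCGG on either strand).
Kcna5 (chr6:126535556-126535805, minus strand): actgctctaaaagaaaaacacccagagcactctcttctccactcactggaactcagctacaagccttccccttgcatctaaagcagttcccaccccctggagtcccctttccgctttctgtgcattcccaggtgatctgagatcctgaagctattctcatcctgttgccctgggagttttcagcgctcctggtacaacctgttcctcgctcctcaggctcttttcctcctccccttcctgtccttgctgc
Kcnj15 (chr16:95257308-95257557, plus strand): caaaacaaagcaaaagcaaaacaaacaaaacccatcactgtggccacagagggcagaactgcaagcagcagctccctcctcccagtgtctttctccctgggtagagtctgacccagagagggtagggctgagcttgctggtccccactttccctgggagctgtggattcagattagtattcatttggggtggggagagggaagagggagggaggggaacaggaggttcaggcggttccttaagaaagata
Kcnk10 (chr12:98578214-98578463, minus strand): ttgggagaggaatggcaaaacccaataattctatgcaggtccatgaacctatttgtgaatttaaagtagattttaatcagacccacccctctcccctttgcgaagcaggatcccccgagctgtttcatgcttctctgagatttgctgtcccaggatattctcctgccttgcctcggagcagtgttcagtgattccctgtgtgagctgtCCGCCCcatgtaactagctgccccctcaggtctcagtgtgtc
Kcnc2 (chr10:112269767-112270016, plus strand): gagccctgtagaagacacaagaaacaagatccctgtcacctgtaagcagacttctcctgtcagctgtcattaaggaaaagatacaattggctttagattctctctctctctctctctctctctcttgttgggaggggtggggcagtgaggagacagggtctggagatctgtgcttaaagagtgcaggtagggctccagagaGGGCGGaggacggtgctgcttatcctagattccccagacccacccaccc
Kcnd2 (chr6:21215096-21215345, plus strand): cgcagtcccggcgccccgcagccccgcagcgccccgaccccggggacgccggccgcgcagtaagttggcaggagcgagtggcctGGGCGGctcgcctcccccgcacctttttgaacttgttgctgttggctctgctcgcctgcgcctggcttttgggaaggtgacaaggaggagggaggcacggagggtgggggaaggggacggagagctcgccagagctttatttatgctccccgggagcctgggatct

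Windows of this length were at hand for 36 of the 44 tested genes. A GC box, the site of Sp-family factors, lay in a window of 18 of the 26 genes with a window that were lower in embryonic fragments than in rest of brain. Among genes higher in fragments it lay in a window of 1 of 5, which was the other start of Kcne3. Over all 27025 genes with a window 35.4% held it, and over all 32851 windows 32.7%. An ETS site (CCGGAAG on either strand), a motif bound by factors that endothelial cells use widely, was found in windows of Kcnip2 and Kcnk2 and of none of the 5 genes higher in fragments, beside 7.83% of all genes. None of the 36 tested genes with a window held a TATA box (TATAAA on either strand), beside 14.3% of all genes. These matches describe the letters of the windows alone.

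The comparison of embryonic fragments with rest of brain, alike in titled age, strain and kit, asks which channel transcripts are richer in vessels than in the tissue around them. More of the tested channel genes were higher in rest of brain than in the vessels, and a small set led by Kcna5, Kcnq1 and Kcnj15 was higher in the vessels. Of the 44 tested genes 8 were higher in embryonic fragments and 29 lower at a limma adjusted p under 0.05, and 7 were not called. Over all 12009 genes 28.9% were called higher and 37.2% lower, 66.1% in all. The arrays of the groups did not overlap for 38 of the 44 and for 76.7% of all genes. The median difference was -2.24 over the 44 genes and -0.10 over all genes. A gene that reached 4 in a single group could be tested only through its high values there, and this held for 21 of the 44, of which 16 reached it in rest of brain alone, 3 in embryonic fragments alone and 2 in adult fragments alone. Among the 23 that reached 4 in more than 1 group, 5 were higher, 12 lower and 6 not called.

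**Figure D1:**
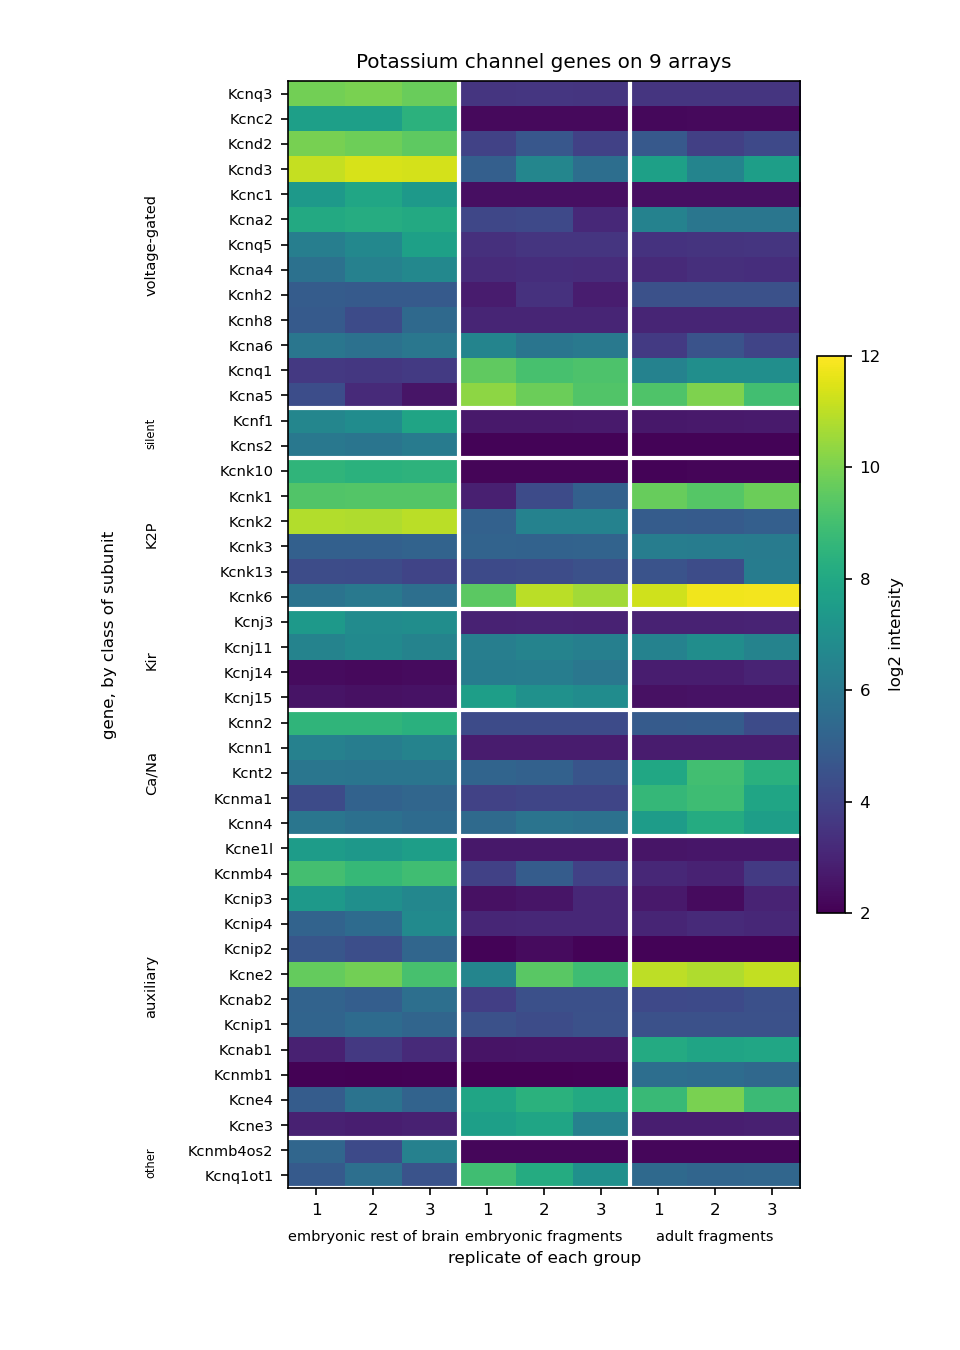
Log2 intensity of the 44 tested genes (rows, by class of subunit and then by their difference between embryonic fragments and rest of brain) on the 9 arrays (columns, by group and replicate). Kir stands for inward rectifiers and Ca/Na for calcium- or sodium-activated channels. Brighter cells are higher values. Kcnq3, Kcnc2 and Kcnk10 are bright in rest of brain alone, Kcna5, Kcnk6 and Kcne4 are brighter in fragments of both ages, and Kcnk1 is dark in embryonic fragments alone.

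Kcna5 had the largest difference in favour of embryonic fragments among the 44 genes. It encodes a voltage-gated subunit known from vascular smooth muscle and the heart atrium. Its values were 10.32, 9.77 and 9.29 in embryonic fragments, 4.35, 3.19 and 2.57 in rest of brain and 9.24, 10.06 and 8.97 in adult fragments. All fragment arrays lay far above rest of brain, where 2 of 3 arrays were under 4. The difference between the embryonic groups was 6.43 ± 0.48 (log2 ± SE, limma adjusted p = 3.19e-06), and its size rests on rest of brain arrays at or near background. Between the ages it was -0.37 (adjusted p = 0.551, 95% interval -1.46 to 0.73), and the groups overlapped.

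Kcnq1, the pore of the slow delayed rectifier and of potassium channels in epithelia, was at background in rest of brain, at 3.65, 3.64 and 3.69. Embryonic fragments read 9.57, 9.10 and 9.22, at least 39.3-fold higher (adjusted p = 1.07e-08). Adult fragments lay between these groups without overlap, at 6.45, 6.94 and 6.94. Kcne3, a small membrane protein that holds Kcnq1 channels open, was found in embryonic fragments alone. It read 7.63, 7.88 and 6.41 there, 2.93, 2.86 and 2.91 in rest of brain and 2.82, 2.86 and 2.88 in adult fragments. This put embryonic fragments at least 9.89-fold above rest of brain (adjusted p = 2.98e-06). The identifiers of the probe sets of Kcne3, Kcne2, Kcnab1, Kcnn4 and Kcnh2 mark probes shared by several transcripts, so that their values may join transcripts.

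Kcne4, an auxiliary subunit that inhibits Kcnq1 and some voltage-gated channels, was measured in every group. Values were 7.88, 8.40 and 8.08 in embryonic fragments, 4.92, 5.81 and 5.20 in rest of brain and 8.78, 9.98 and 8.81 in adult fragments. Rest of brain lay lowest, with no overlap, and embryonic fragments were 7.01-fold higher (difference 2.81 ± 0.35, adjusted p = 0.000108). Kcnq1ot1 is a non-coding RNA made antisense to Kcnq1 from within that gene and is no channel subunit, though its symbol places it here. It read 8.93, 8.16 and 7.01 in embryonic fragments and 4.83, 5.65 and 4.57 in rest of brain, 8.11-fold higher in fragments (adjusted p = 0.000338). Both other probe sets of it that passed the filter were called in the same direction, by 1.44 and 3.01. Which strand the probes match was not checked, so that RNA of Kcnq1 introns cannot be told apart from Kcnq1ot1.

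The leak channel Kcnk6, a relative of Kcnk1, was high on all fragment arrays. It gave 9.47, 10.97 and 10.63 in embryonic fragments, 5.80, 6.05 and 5.65 in rest of brain and 11.28, 11.77 and 11.84 in adult fragments. The embryonic groups were 23-fold apart (difference 4.52 ± 0.36, adjusted p = 4.65e-06). The inward rectifiers Kcnj15, known from epithelia such as kidney, and Kcnj14 were at background outside embryonic fragments. Kcnj15 read 7.62, 7.07 and 6.88 in embryonic fragments, against 2.53, 2.47 and 2.50 in rest of brain and 2.46, 2.48 and 2.49 in adult fragments. Kcnj14 read 6.21, 6.23 and 5.95 in embryonic fragments, against 2.30, 2.27 and 2.29 in rest of brain and 2.80, 2.81 and 2.99 in adult fragments. Embryonic fragments were thus at least 9.11-fold (Kcnj15, adjusted p = 3.71e-08) and at least 4.38-fold (Kcnj14, adjusted p = 8.99e-09) higher than rest of brain. For both genes no array of another group came near the embryonic fragments. Like Kcne3, both reached 4 in embryonic fragments alone. They could be tested only through these values, so their direction was set by the filter. The other probe set of Kcnj15 that passed the filter averaged 6.15 in embryonic fragments and 2.47 in rest of brain. Summed endothelial, pericyte, smooth muscle and macrophage markers were also higher in embryonic fragments than in rest of brain, as listed above. Of the 10 smooth muscle markers 6 were called higher and 4 were not called. These sums stayed high in adult fragments, where Kcnj15, Kcne3 and Kcnj14 were at background. Single markers could differ from their sum. Of the 12 microglia and macrophage markers 1 was higher in adult than in embryonic fragments, 10 were not called and 1, Mrc1, was lower. Mrc1 averaged 14.81 in embryonic fragments, 10.03 in rest of brain and 9.97 in adult fragments. The part of these cell types in the result was not tested.

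**Figure D2:**
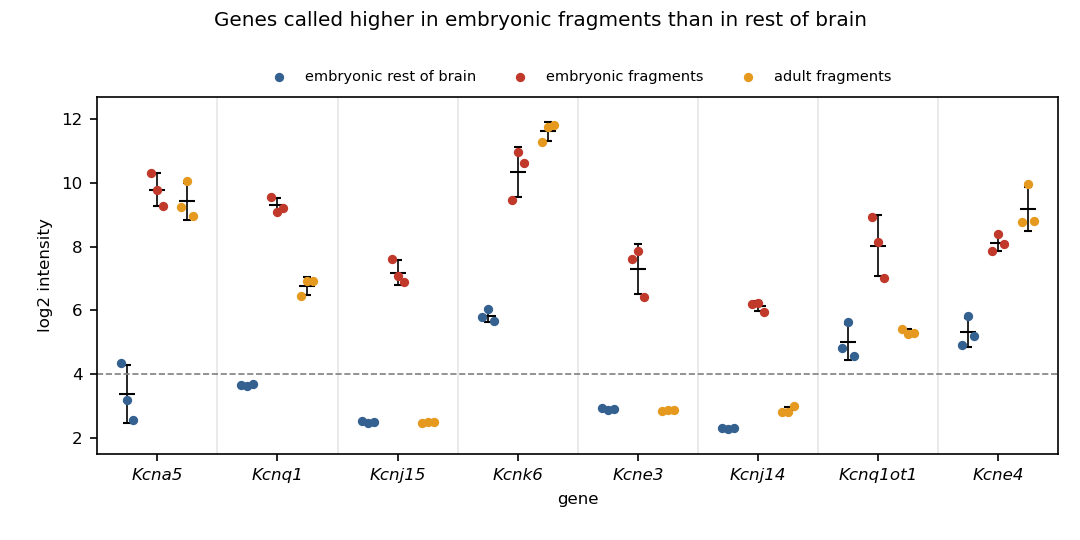
Log2 intensity (y axis) of the 8 genes called higher in embryonic fragments than in rest of brain (x axis), with 1 point per array coloured by group and bars for the mean ± SD of 3 arrays. The dashed line marks the background value of 4. Kcnj15, Kcne3 and Kcnj14 stand above it in embryonic fragments alone, and Kcna5, Kcnk6 and Kcne4 are high in fragments of both ages.

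On the other side, 10 of the 29 genes that were lower in embryonic fragments were voltage-gated pore subunits. Of the 13 tested in that class 10 were lower and 2 higher, with a median difference of -3.39, beside 37.2% lower and 28.9% higher of all genes. In this class 6 genes lay at background in fragments of both ages. These could be tested only through their high values in rest of brain, so their direction was set by the filter. All 16 tested neuronal markers were lower as well, and their part in the result was not tested. Kcnq3, which with Kcnq5 carries the M-current that restrains neuronal firing, read 9.88, 9.99 and 9.73 in rest of brain and 3.55, 3.57 and 3.56 in embryonic fragments, at least 58.4-fold lower (adjusted p = 6.73e-10). Kcnq5 was at 6.88 ± 0.71 (mean ± SD, n = 3) in rest of brain and at background in fragments. Kcnc2, a subunit of the rapid channels of fast-firing neurons, gave 7.65, 7.64 and 8.43 in rest of brain and 2.25, 2.24 and 2.25 in embryonic fragments, at least 15-fold lower (adjusted p = 2.69e-08). Kcnc1, of the same family, gave 7.42, 7.93 and 7.36 in rest of brain and 2.41, 2.41 and 2.42 in embryonic fragments, at least 11.9-fold lower (adjusted p = 9.02e-09). For each of these genes every fragment array lay at background.

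The A-type subunits of dendrites were strong in rest of brain and partly measured in vessels. Kcnd2 read 9.95, 9.80 and 9.51 in rest of brain and 3.96, 4.73 and 3.92 in embryonic fragments, a difference of -5.55 (SE 0.28, adjusted p = 2.51e-07), with 2 of 3 fragment arrays under 4. Its other probe sets that passed the filter were at background in embryonic fragments, at least 24.3-fold and 31.1-fold lower than in rest of brain. Kcnd3, found in heart as well, read 11.10, 11.40 and 11.34 in rest of brain and 5.02, 6.58 and 5.62 in embryonic fragments, 46.7-fold lower (adjusted p = 3.68e-06). Unlike Kcnd2, it was above 4 on every array. Kcna2, a subunit of axons, was lower by 4.28 ± 0.27 (adjusted p = 1.14e-06; 3.84 ± 0.58 against 8.12 ± 0.076, 1 fragment array under 4). Kcna4, an A-type subunit, was at least 4.78-fold lower (adjusted p = 2.41e-06). The ether-a-go-go relatives Kcnh2 and Kcnh8 were low in rest of brain, at 4.86 and 4.85, and at background in embryonic fragments. Kcna6 was the uncalled member of the class, at 6.14 ± 0.31 and 5.89 ± 0.13 (difference 0.25, 95% interval -0.28 to 0.78).

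The electrically silent subunits Kcnf1 and Kcns2, which alter channels of the Kcnb family, were measured in rest of brain alone. Kcnf1 read 6.60, 6.88 and 7.85 in rest of brain, 2.70, 2.70 and 2.72 in embryonic fragments and 2.65, 2.70 and 2.71 in adult fragments. Both fragment groups were at background, at least 8.64-fold below rest of brain (adjusted p = 9.85e-07 for embryonic fragments). Kcns2 was at 6.02 ± 0.13 in rest of brain and at background in the fragments. The other 7 genes of this class did not pass the filter.

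Leak channels split between the tissues. Kcnk10 and Kcnk2, related channels that respond to lipids and membrane stretch, were both lower in embryonic fragments. Kcnk10 read 8.55, 8.38 and 8.47 in rest of brain and 2.13, 2.13 and 2.13 in embryonic fragments, at least 22.1-fold lower (adjusted p = 5.89e-10). Kcnk2 read 10.86, 10.80 and 10.98 in rest of brain, 5.12, 6.43 and 6.43 in embryonic fragments and 4.92, 4.86 and 5.03 in adult fragments, so it was above background in the fragments as well, 29.6-fold lower in the embryonic ones (adjusted p = 1.23e-06). Kcnk1, a weakly conducting leak channel of neurons and glia, gave 9.30, 9.33 and 9.32 in rest of brain and 2.88, 4.29 and 5.06 in embryonic fragments. Rest of brain hardly varied, whereas the fragment arrays spread over more than 2 log2 units, and the difference was -5.24 (adjusted p = 9.1e-06). Kcnk3, an acid-sensitive leak channel, and Kcnk13 were not called, at differences of 0.06 (95% interval -0.15 to 0.26) and 0.13 (-0.83 to 1.10).

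Among inward rectifiers, Kcnj3, a subunit of the channels that G proteins open in neurons and atrium, stood with rest of brain. It was at 7.04 ± 0.32 there and at least 8.25-fold lower in embryonic fragments (adjusted p = 3.85e-08). Kcnj11, the pore of ATP-sensitive channels in neurons and pancreatic beta cells, was called in no comparison. It read 6.28, 6.46 and 6.33 in embryonic fragments, 6.48, 6.73 and 6.47 in rest of brain and 6.45, 6.91 and 6.47 in adult fragments. The embryonic fragments lay just under rest of brain and the other groups overlapped. The 95% intervals were -0.55 to 0.14 for embryonic fragments minus rest of brain, -0.09 to 0.60 for adult minus embryonic fragments and -0.29 to 0.40 for adult fragments minus rest of brain.

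The small-conductance calcium-activated subunits Kcnn1 and Kcnn2, which follow the neuronal spike, were lower in embryonic fragments. Kcnn2 was at 8.47 ± 0.11 in rest of brain and 18.3-fold lower in fragments (adjusted p = 5.83e-08), and Kcnn1 at 6.36 ± 0.12 and at least 5.14-fold lower (adjusted p = 5.56e-09). Kcnt2, a sodium-activated channel, was 1.9-fold lower (adjusted p = 0.0114). Kcnn4, the intermediate-conductance channel of endothelium and blood cells, had a difference of -0.02 (95% interval -0.47 to 0.42) and was not called.

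Of 12 tested auxiliary subunits 8 were lower and 2 higher in embryonic fragments. Of the 12, 4 lay at background in fragments of both ages and were tested only through rest of brain. The Kcnip proteins bind calcium and carry Kcnd channels to the membrane. Their 4 members were all lower, Kcnip3 by at least 8.06-fold, Kcnip4 by at least 3.55-fold, Kcnip2 by at least 1.74-fold and Kcnip1 by 1.9-fold (adjusted p = 8.34e-07, 0.000132, 4.9e-06 and 7.15e-05). The other probe set of Kcnip1 was at background in fragments, at least 3.88-fold lower. Kcnmb4, the beta subunit of neuronal BK channels, was at 8.89 ± 0.18 in rest of brain and 4.27 ± 0.54 in embryonic fragments, a difference of -4.62 (adjusted p = 9.66e-07, 2 fragment arrays under 4). Kcne1l, of the Kcne family of small regulators, was at 7.48 ± 0.15 in rest of brain and at background in fragments. Kcnab2, a beta subunit of Kcna channels, was 2.05-fold lower (adjusted p = 0.00237). Kcnab1 was called lower although both embryonic groups lay at background, and no fold is given. In this class Kcne2 and Kcnmb1 were not called. Kcnmb4os2, an opposite-strand transcript named after Kcnmb4 and no subunit, was at 5.31 ± 1.07 in rest of brain and at background in fragments.

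Adult fragments differ from embryonic ones in age, strain and kit together, and where the text says between the ages it means between these groups. Kcnk1, Kcnab1, Kcnmb1 and, by 1 of 2 probe sets, Kcnma1 were higher in adult fragments, and Kcnj15, Kcne3, Kcnj14 and Kcnq1 were lower. Of these, Kcnab1 and Kcnmb1 reached 4 in adult fragments alone, and Kcnj15, Kcne3 and Kcnj14 in embryonic fragments alone. The filter thus set the direction of these 5 genes. Of the 44 tested genes 13 were higher in adult fragments, 8 were lower and 23 were not called, and 16 of the 44 lay at background in both groups. For the 23 that reached 4 in more than 1 group the counts were 11 higher, 5 lower and 7 not called. Over all genes 27.4% were called higher and 29.7% lower, 57.1% in all. The arrays did not overlap for 23 of the 44 and for 62.6% of all genes, and the median difference was 0.0034 over the 44 and -0.016 over all genes. Among calcium- or sodium-activated pore subunits 3 of 5 were higher and none lower, while the inward rectifiers had 2 of 4 lower and none higher. These groups share the embryonic fragment arrays with the comparison above, so that the pair of comparisons is not independent.

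Kcnma1, the pore of the BK channel that lets calcium relax smooth muscle, was 21.3-fold higher in adult fragments by the probe set that stands for it. It read 8.65, 8.88 and 7.89 in adult fragments, 3.97, 4.10 and 4.11 in embryonic fragments and 4.28, 5.13 and 5.32 in rest of brain. Adult fragments stood apart from all embryonic arrays (difference 4.41 ± 0.31, adjusted p = 6.52e-06). Another probe set of Kcnma1 gave 2.85, 2.84 and 2.84 in adult fragments, 2.55, 2.83 and 2.55 in embryonic fragments and 5.46, 5.77 and 6.23 in rest of brain. By that probe set fragments of both ages were at background and rest of brain was highest, so the probe sets were called in opposite directions between adult fragments and rest of brain (3.56 and -2.98), and the direction for Kcnma1 is uncertain there. Between the ages the other probe set was not called (0.20). Its lower value in embryonic fragments than in rest of brain by the first probe set (-0.85, adjusted p = 0.0394) was lost without embryonic fragments replicate 1, 2 or 3, rest of brain replicate 2 or 3 or adult fragments replicate 1 (adjusted p = 0.052 to 0.138).

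Kcnmb1, the beta subunit that makes BK channels of smooth muscle sensitive to calcium, rose from background. It read 5.60, 5.54 and 5.39 in adult fragments, 2.03, 2.04 and 2.05 in embryonic fragments and 2.05, 2.03 and 2.04 in rest of brain. Adult fragments were at least 2.85-fold higher than embryonic ones (adjusted p = 2.47e-08). Kcnab1, a beta subunit that speeds the closing of Kcna channels, was likewise measured in adult fragments alone. There it read 8.12, 7.83 and 7.90, beside 2.55, 2.55 and 2.56 in embryonic fragments and 2.90, 3.68 and 3.21 in rest of brain, at least 15.5-fold higher than in embryonic fragments (adjusted p = 9.64e-08). Kcnmb1 and Kcnab1 reached 4 in adult fragments alone. They could be tested only through these values, so their direction was set by the filter. The smooth muscle list moved with these genes. Of its 10 markers 9 were higher in adult than in embryonic fragments and 1, Smtn, was lower, and Cnn1, Lmod1 and Pln were at background in embryonic but not in adult fragments. Pln, which restrains the calcium pump of muscle, was at least 241-fold higher in adult fragments (adjusted p = 3.13e-10). Cnn1, Lmod1 and Pln were at background in rest of brain too, so their direction was likewise set by the filter. The part of smooth muscle cells in the changes of Kcnma1, Kcnmb1 and Kcnab1 was not tested.

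**Figure D3:**
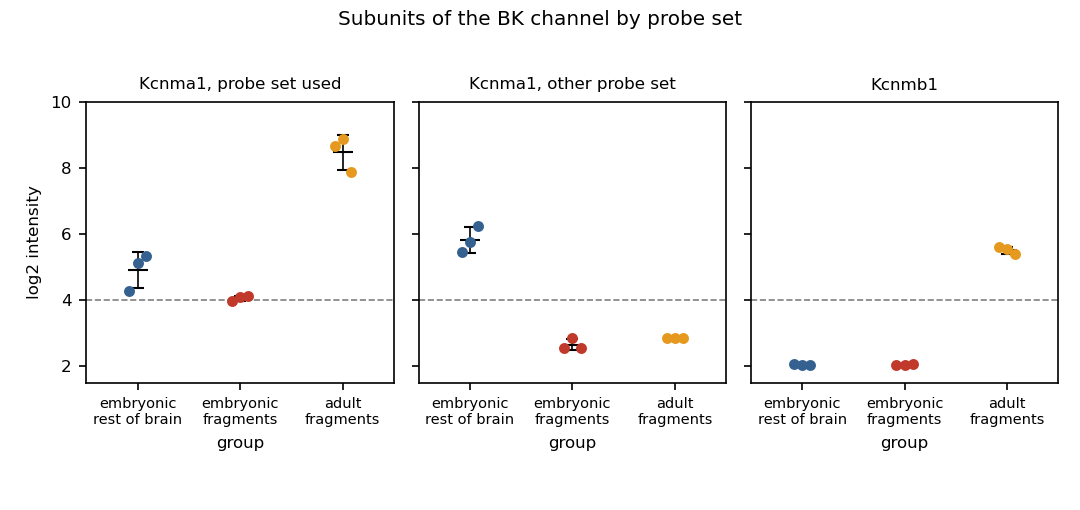
Log2 intensity (y axis) of the BK channel subunits in the 3 groups (x axis), with 1 point per array, bars for the mean ± SD of 3 arrays and a dashed line at the background value of 4. The probe set used for Kcnma1 and that of Kcnmb1 are highest in adult fragments, whereas the other probe set of Kcnma1 is above 4 in rest of brain alone.

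Kcnt2 and Kcnn4 were higher in adult fragments too. Kcnt2 read 7.95, 8.97 and 8.35 in adult and 5.23, 5.10 and 4.60 in embryonic fragments, with 5.91, 5.89 and 5.89 in rest of brain between them. The ages were 10.9-fold apart (adjusted p = 8.47e-06). Kcnn4 gave 7.54, 8.14 and 7.60 in adult fragments, 5.44, 5.85 and 5.73 in embryonic fragments and 5.93, 5.67 and 5.49 in rest of brain, so that the embryonic groups overlapped and the adult arrays stood apart. It was 4.25-fold higher in adult than in embryonic fragments (adjusted p = 3.44e-05). Kcnn2 was not called (0.41, adjusted p = 0.0673), but was without adult fragments replicate 3 (adjusted p = 0.00136).

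Of 6 tested leak channels 3 were higher and 1 was lower in adult fragments. Kcnk1 changed most, with 9.69, 9.36 and 9.76 in adult and 2.88, 4.29 and 5.06 in embryonic fragments, 46-fold higher (difference 5.52 ± 0.46, adjusted p = 1.54e-05). Adult fragments and rest of brain were not called apart, at a difference of 0.29 (95% interval -0.75 to 1.33). Embryonic fragments replicate 1 was under 4, and without it the differences were 4.93 between the ages, 30.4-fold (adjusted p = 2.52e-06), and -4.64 between the embryonic groups (adjusted p = 9.59e-07). Astrocyte and oligodendrocyte lists did not move as one between the ages, with 6 of 11 and 2 of 8 tested markers higher and 3 and 2 lower. The median difference of the astrocyte list was 1.26. Slc1a2, which rose most in it, averaged 3.55 in embryonic fragments, 10.29 in rest of brain and 12.35 in adult fragments. Fabp7, which fell most, averaged 14.65, 15.88 and 8.47. The part of glia in the result was not tested. Kcnk6 was 2.42-fold higher (difference 1.27 ± 0.36, adjusted p = 0.0143), or 0.83 without embryonic fragments replicate 1, and was lost with the 2 groups fitted alone (adjusted p = 0.0508). Kcnk3 moved little but evenly, from 5.18, 5.15 and 5.18 to 6.24, 6.21 and 6.18 (2.06-fold, adjusted p = 1.91e-05). Kcnk2 was lower by 1.06 ± 0.32 (adjusted p = 0.0193), a call lost without embryonic fragments replicate 2 or 3 or adult fragments replicate 1 or 2 (adjusted p = 0.0502 to 0.069). Kcnk13, known from microglia, was not called (adjusted p = 0.203), and of its adult values 4.57, 4.32 and 6.21 the last stood alone, without which the difference from embryonic fragments went from 0.68 to 0.09 (adjusted p = 0.598).

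Kcne2, an auxiliary subunit that works with Kcnq1 in the choroid plexus epithelium, was 6.37-fold higher in adult fragments. It read 11.01, 10.79 and 11.10 in adult fragments, 6.56, 9.46 and 8.88 in embryonic fragments and 9.62, 9.89 and 9.11 in rest of brain. The adult arrays were tight and all above the others, while embryonic fragments replicate 1 lay far under the arrays of its own group (adjusted p = 0.00666). Choroid plexus and ependymal markers moved with it. Of 7 tested, 6 were higher in adult than in embryonic fragments and none was lower, and the summed level was 15.71, 16.22 and 16.10 in embryonic fragments, 16.20, 16.29 and 16.20 in rest of brain and 16.80, 16.87 and 16.83 in adult fragments. Replicate 1 of embryonic fragments was lowest in this list as well. This was not particular to the list. Within its group that array was also lowest for summed pericyte, smooth muscle, neuronal, astrocyte, oligodendrocyte and microglia markers, and highest for endothelial ones. Foxj1 was at background in fragments of both ages and Kl in both embryonic groups, so that the direction of Kl was set by the filter. Kl, a membrane protein of choroid plexus and kidney, was at least 38.2-fold higher in adult fragments (adjusted p = 1.27e-09), and the part of choroid plexus tissue in the change of Kcne2 was not tested. Against rest of brain, Kcne2 was not called in embryonic fragments (-1.24, adjusted p = 0.119) or in adult fragments (1.43, adjusted p = 0.0684). Both passed without embryonic fragments replicate 2 (adjusted p = 0.0291 and 0.0392), and the latter without embryonic fragments replicate 1 (adjusted p = 0.000719). The adult arrays did not overlap those of rest of brain. Their difference also passed with these groups fitted alone (limma adjusted p = 0.000935) and with the replicate block (adjusted p = 0.00404). Without embryonic fragments replicate 1 the embryonic groups differed by -0.37 (adjusted p = 0.257) and the fragments of both ages by 3.49-fold (adjusted p = 0.000823).

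Among voltage-gated subunits 3 of 13 were higher and 2 lower in adult fragments, and 6 lay at background at both ages. Kcna2 read 6.43, 5.92 and 5.93 in adult and 4.14, 4.20 and 3.17 in embryonic fragments, 4.77-fold higher (adjusted p = 0.000151), and stayed under rest of brain at 8.09, 8.20 and 8.06. Kcnd3 read 7.68, 6.49 and 7.59 in adult fragments, overlapping the embryonic arrays, and its difference of 1.52 ± 0.42 (adjusted p = 0.0139) was lost without adult fragments replicate 1 (adjusted p = 0.0515) and in a fit of these 2 groups by themselves (adjusted p = 0.053). Kcnh2, the erg channel of heart and brain, went from background to 4.49 ± 0.0027, at least 1.41-fold (adjusted p = 0.000114). Of the neuronal markers, 9 of 16 tested were lower in adult fragments and 2 higher. Kcne4, of the auxiliary subunits, was higher by 1.07 ± 0.35 (adjusted p = 0.0296). That call was lost without embryonic fragments replicate 1 or 3 (adjusted p = 0.0855 and 0.0723) or adult fragments replicate 2 (difference 0.68, adjusted p = 0.067).

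**Figure D4:**
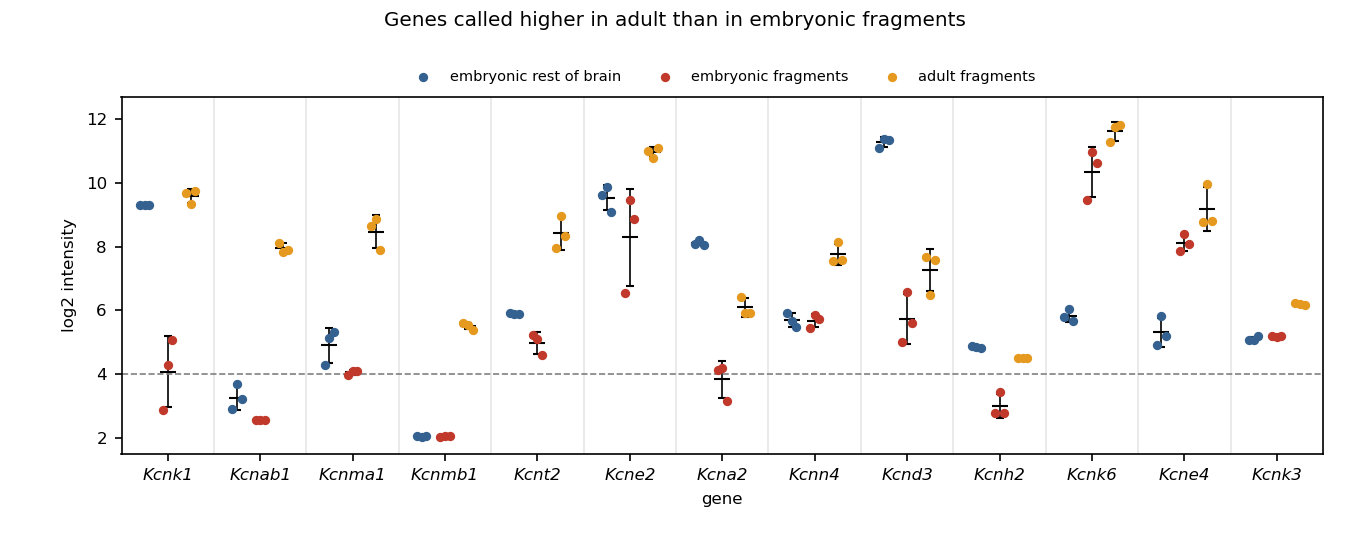
Log2 intensity (y axis) of the 13 genes called higher in adult than in embryonic fragments (x axis, by size of the difference), with 1 point per array coloured by group and bars for the mean ± SD of 3 arrays. The dashed line marks the background value of 4. Kcnab1 and Kcnmb1 are above it in adult fragments alone, and Kcna2 and Kcnd3 are higher still in rest of brain.

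On the falling side, the embryonic set of Kcnj15, Kcne3 and Kcnj14 went to background in adult vessels, at values given above. Adult fragments were at least 9.11-fold lower for Kcnj15 (adjusted p = 1.33e-07), 9.89-fold for Kcne3 (adjusted p = 7.49e-06) and 4.38-fold for Kcnj14 (adjusted p = 9.29e-08). All of these were tested only through embryonic fragments, so this direction too was set by the filter. Kcnq1, the partner of Kcne3, was 5.74-fold lower (adjusted p = 4.66e-06) and stayed at least 6.85-fold above rest of brain. Kcnq1ot1 read 5.42, 5.27 and 5.28 in adult fragments, 6.55-fold lower than in embryonic ones (adjusted p = 0.000978), and its other probe sets were lower too, by 1.13 and 1.91. Kcna6, a Kcna subunit, read 3.71, 4.55 and 4.05 in adult fragments against 6.49, 5.89 and 6.05 in embryonic fragments and 5.94, 5.75 and 5.98 in rest of brain, 4.11-fold lower than in embryonic fragments (adjusted p = 0.000103). Kcnmb4 was at background in adult fragments, at least 1.2-fold lower (adjusted p = 0.0151). It lost its call with values floored at 4 (adjusted p = 0.311) and without adult fragments replicate 2 (adjusted p = 0.0529). Endothelial markers were mixed between the ages, with 4 higher and 5 lower of 14.

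Adult fragments and embryonic rest of brain differ in tissue as well as in age, strain and kit, and the comparison serves to place the adult values. Of the 44 genes 11 were higher in adult fragments and 25 lower, and 8 were not called, beside 33.1% higher and 42.9% lower of all genes (76.0% in all). Among the 23 that reached 4 in more than 1 group, 8 were higher, 9 lower and 6 not called. The excess of lower genes thus rests largely on genes tested only through their values in rest of brain. The arrays did not overlap for 39 of the 44 and for 79.9% of all genes, and the median difference was -1.80 over the 44 and -0.17 over all genes. Higher in fragments of both ages than in rest of brain were Kcna5, Kcnq1, Kcnk6, Kcne4 and Kcnj14, the last by a difference between background values in the adult. For Kcna5 the adult difference was 6.06 ± 0.48 (adjusted p = 3.71e-06), for Kcnk6 5.79 ± 0.36 (adjusted p = 6.8e-07) and for Kcne4 3.88 ± 0.35 (adjusted p = 9.98e-06). Higher than rest of brain in adult fragments, without being called higher in embryonic ones, were also Kcnab1 and Kcnmb1, described above, Kcnma1 by 1 of its probe sets and lower by the other, and Kcnt2, Kcnn4 and Kcnk3, by 2.53 ± 0.26, 2.06 ± 0.20 and 1.10 ± 0.089. Kcnh2 was close to rest of brain, at -0.36 (adjusted p = 0.0854), and passed without embryonic fragments replicate 2 (adjusted p = 0.00838). Kcnk13 was not called (0.82, adjusted p = 0.109) but passed without adult fragments replicate 2 (adjusted p = 0.0327). In all, 20 genes, among them Kcnq3, Kcnk10, Kcnc1, Kcnc2 and Kcnd2, were lower in fragments of both ages and not called between the ages. Of these, 16, without Kcnd2, reached 4 in rest of brain alone and lay at background in all fragments. Their direction was set by the filter, and the share of all genes with this pattern was not counted.

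The 37 genes that did not pass the filter were mostly silent on the array. Of these, 34 were under 4 on all 9 arrays. They include the voltage-gated Kcna1, Kcna3, Kcna7, Kcnd1, Kcnh1, Kcnh3, Kcnh5 and Kcnh7, the inward rectifiers Kcnj1, Kcnj2, Kcnj4, Kcnj5, Kcnj6, Kcnj9, Kcnj12 and Kcnj16, and the calcium- or sodium-activated Kcnn3, Kcnt1 and Kcnu1. They also include the leak channels Kcnk4, Kcnk5, Kcnk7, Kcnk12, Kcnk15 and Kcnk16, the silent subunits Kcng1, Kcng2, Kcng4, Kcns1, Kcns3, Kcnv1 and Kcnv2, the auxiliary Kcne1 and the transcript Kcnmb4os1. Kcnc4, Kcnmb2 and Kcnab3 reached 4 on 1 or 2 arrays of rest of brain. Kcnc4 read 5.67, 4.62 and 3.76 there and Kcnmb2 2.96, 4.54 and 5.52. Just inside the filter were Kcnmb4os2 and Kcnh8, whose 3 highest arrays went down to 4.25 and 4.27, and just outside were Kcnc4 and Kcnj16, whose 3 highest arrays went down to 3.76 and 3.56. Kcnj2, a rectifier known from brain capillaries, was at 3.26, 3.22 and 3.17 in embryonic and 3.16, 3.16 and 3.17 in adult fragments, which says only that its probe set stayed at background.

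Genes of proteins that work with these channels were taken from fixed lists. Over all genes 28.9% were higher and 37.2% lower in embryonic fragments than in rest of brain. Between the ages 27.4% were higher and 29.7% lower in adult fragments. The limit of the filter holds for these lists too. Dpp6, Dpp10, Hcn3, Scn1a, Scn8a, Cacna1b and Cacna2d3 lay at background in fragments of both ages and were tested only through rest of brain. Of 7 tested partners, 1 was higher and 5 were lower in embryonic fragments than in rest of brain, and 1 was higher and 1 lower in adult than in embryonic fragments. The sulfonylurea receptor Abcc9, which joins inward rectifiers in ATP-sensitive channels of pericytes and smooth muscle, was 8.02-fold higher in embryonic fragments (adjusted p = 8.98e-06), while Dpp6, which speeds Kcnd channels, was at background in embryonic fragments, at least 13.6-fold lower (adjusted p = 6e-10). Between the ages Amigo1, a partner of Kcnb channels, went from background to a mean of 4.36, at least 1.28-fold (adjusted p = 0.0138) and the pacemaker channel Hcn2 fell by 0.43 (adjusted p = 0.03).

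Of 6 tested subunits and regulators of the Na+/K+ pump 2 were higher and 4 lower in embryonic fragments than in rest of brain. Fxyd5 was higher by 5.42 ± 0.21 (adjusted p = 4.91e-08) and Fxyd6 fell by 4.59 (adjusted p = 0.000164), both small regulators of the pump. In adult fragments 3 of the 6 were higher than in embryonic ones and none lower, led by Fxyd1, by 3.53 ± 0.50 (adjusted p = 0.000366). Voltage-gated sodium channel subunits had 1 of 7 higher and 5 lower in embryonic fragments. Scn4b, a beta subunit, was at background in rest of brain and at least 3.25-fold higher in embryonic fragments (adjusted p = 0.000167) and was higher again by 3.02 ± 0.41 in adult fragments (adjusted p = 0.000292), whereas Scn2a, a pore of neurons, was at least 82.1-fold lower in embryonic fragments, at background there (adjusted p = 5.96e-07). Between the ages 4 of the 7 were higher in adult fragments and none lower. Calcium channel subunits had 8 of 9 lower and none higher in embryonic fragments, among them Cacnb4, at background there and at least 35.9-fold lower (adjusted p = 4.03e-07). In adult fragments 3 of 9 were higher and 1 lower than in embryonic fragments, with Cacnb4 at least 11.9-fold higher (adjusted p = 7.43e-06) and Cacna1e, a pore subunit of neurons, down by 4.76 ± 0.27 (adjusted p = 1.67e-06).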

How the data were processed

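Values are the authors' deposited log2 intensities, 1 per probe set and array, for which the submitters' processing notes name GCRMA 2.6.0 and R 2.4.1. Their range shows the log2 scale, and no source names other steps. GCRMA sets the distributions of arrays nearly equal, so a change in total RNA cannot be seen. Scanner files and scan dates were not used here, so no slide or date block was run. The number of arrays limits the precision. A p-value sets a difference against the moderated spread of the gene between arrays within groups, pooled over all 3 groups.

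Genes came from the platform's annotation table, and all 81 were found by Entrez identifier in RefSeq with 0 symbols changed. The test was lmFit and eBayes of limma 3.58.1 under R 4.3.3 (2-sided, all 9 arrays in 1 fit), adjusted by Benjamini-Hochberg over 12009 genes. At least folds set the brighter group's mean against 4. Genes and lists were chosen with earlier results of these data known. Values on every array are given for the 8 called genes with the largest difference in each direction among those that average 6 or more in the higher group, between the embryonic groups and between the ages, and for the highest gene of each class; values of other genes were added after they were seen. From each fixed list of other genes the largest called difference in each direction was named. The same replicate numbers of embryonic fragments and rest of brain deviated together (r = 0.19, 0.20 and 0.22 over genes, other pairs -0.21 to -0.02), so they may be paired. Adult replicate 2, no partner, reached r = 0.21 and 0.20 with replicate 1 of embryonic fragments and rest of brain. All limma p-values in the Results ignore such pairing. With a replicate block, adjusted p between the embryonic groups was 4.85e-05 for Kcnk10 (unblocked 5.89e-10) and 0.0236 for Kcnma1 (unblocked 0.0394). The arrays held no identical pair. Alternatives were other filters, scalings, probe set rules and floors, array weights, a trended fit, each pair of groups by itself, the replicate block and leaving out each array.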

Additional observations from a re-analysis of the deposited data

How the results depend on the processing

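The counts of called genes were recomputed under 22 settings. Higher and lower calls came to 8 and 29 for embryonic fragments against rest of brain, 13 and 8 for adult against embryonic fragments and 11 and 25 for adult fragments against rest of brain. Leaving out 1 array at a time gave 8 to 8 and 28 to 29, 12 to 14 and 6 to 8, and 11 to 12 and 25 to 26. A filter of 6 on 3 arrays moved the lower calls of adult fragments against rest of brain from 25 to 16, since fewer genes were tested, and the other counts kept within 1.5 times of their value under every setting. With the mean of all probe sets of a gene the counts were 8 and 21, 10 and 7, and 8 and 17. With the replicate block the counts were 8 and 29, 11 and 6, and 12 and 26, and the block changed no call between the embryonic groups. Adult numbers share only a number with the embryonic ones (r = 0.03, -0.08 and 0.21 with embryonic fragments), and the block there left Kcnd3, Kcnk2, Kcne2 and Kcnmb4 uncalled between the ages (adjusted p = 0.131, 0.0758, 0.0501 and 0.106). Of the single genes' values none reversed, while 33 calls were lost and 16 gained over these settings. A floor of 4 or an offset of 16 lost the calls of Kcnab1 between the embryonic groups and of Kcnj14 between adult fragments and rest of brain, which lie between values at background. The floor also lost Kcnmb4 between the ages (-0.30, adjusted p = 0.311), and the offset Kcnma1 between the embryonic groups (adjusted p = 0.101). Arrays at background limit these results, since true folds are known there as bounds alone.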
